A study of Mus musculus with 54 samples.

Results

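Non-cycling crypt stem cells were chosen by a marker gate, selected on UMI counts of a few genes, from 4 single-cell RNA samples of mouse small intestine. A cell was kept when it held at least 500 genes, at least 1000 UMIs (unique molecular identifiers, which count captured RNA molecules) and under 25% mitochondrial UMIs. It entered the gate with at least 1 UMI in 3 or more of the 6 genes Lgr5, Ascl2, Smoc2, Axin2, Rgmb and Cdca7. It also held at most 1 UMI of Mki67 plus Top2a, and under 10% of its UMIs in Lyz1 and the genes named Defa. The gate held 351 of 9156 kept cells, and 838 further cells passed the marker and Paneth limits but held 2 or more UMIs of Mki67 plus Top2a. These are called cycling marker-positive cells below, and all 8805 kept cells outside the gate are called other kept cells.

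Crypt base stem cells divide to renew themselves and feed the transit-amplifying compartment, from which absorptive and secretory cells arise. Their state is held by Wnt signals, which Lgr5 and the R-spondins amplify, and by Notch signals from neighbouring Paneth cells. Lgr5 is a receptor for R-spondin, Ascl2 is a Wnt-driven transcription factor of the stem cell program, Axin2 is a feedback inhibitor of Wnt signalling, and Smoc2 is a secreted matrix protein. Rgmb is a co-receptor for bone morphogenetic proteins, and Cdca7 is a Myc target tied to cell division. Mki67 and Top2a mark dividing cells, and Lyz1 and the Defa genes encode antimicrobial proteins of Paneth cells.

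The study compared mice lacking miR-375 with wild-type mice, and its title names the crypt cell landscape, proliferation and regeneration. All 4 samples come from 12 month old C57BL6/2J animals, with no treatment labelled, and were dissociated intestinal cells. Each of set 1 and set 2 holds 1 wild-type and 1 knockout sample, so n = 2 per genotype. The labels name neither the animals in a sample nor how the knockout was made, so the spread between these samples may be technical. The gene tests below estimate that spread partly from other genes. Their p-values can therefore be small for a gene whose difference is unlike in the sets. The knockout was not limited to stem cells by any label, and cells outside the epithelium were part of the same suspension. The hairpin that the knockout concerns is shown because its own level was not analysed here: none of the 27998 features is named Mir375, so the labels have no check from the targeted gene. Mir375 lies at chr1:74900658-74900721 on the minus strand of GRCm38.p6, and the RefSeq hairpin of 64 bases is printed 5′ to 3′ with the mmu-miR-375-5p arm in capitals, from position 5 to 26. The 3p arm is the one usually studied as miR-375 and is not marked here.
mmu-miR-375 hairpin: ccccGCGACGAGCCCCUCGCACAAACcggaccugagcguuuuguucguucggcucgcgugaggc

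The gate held 54 cells in wild-type set 1, 102 in knockout set 1, 84 in wild-type set 2 and 111 in knockout set 2. Their summed UMIs ranged from 797653 in wild-type set 1 to 1894452 in wild-type set 2. The median gate cell held 13756.5 UMIs in wild-type set 1, 14343 in knockout set 1, 19803 in wild-type set 2 and 12355 in knockout set 2. Mitochondrial UMIs made up a median of 4.94% and 5.82% in wild-type and knockout set 1, and 10.7% and 11.1% in set 2. Kept cells of the wild-type and knockout samples shared 1 barcode in set 1 and 3 in set 2, none of them in the gate. Levels below are UMIs of a gene per 1000000 UMIs of the summed cells (CPM).

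Smoc2 and Cdca7 were the markers most often detected in gate cells. Smoc2 was seen in 89.5% of the 351 cells, Cdca7 in 88.0%, Axin2 in 74.9%, Rgmb in 51.0%, Ascl2 in 49.3% and Lgr5 in 38.7%. The commonest set of markers was Smoc2 with Axin2 and Cdca7 and no other, in 67 cells, and 36 cells held all 6. Lgr5 was therefore without a UMI in most gate cells, and 160 cells entered with exactly 3 markers. Lgr5 was seen in 33.3% of gate cells in wild-type set 1, 28.4% in knockout set 1, 41.7% in wild-type set 2 and 48.6% in knockout set 2. In cells with 2 of 3 Cd3 genes, which should lack it, the shares were 6.67%, 12.7%, 0.711% and 0.249%, at median depths of 17239.5, 22341, 2906 and 2130.5 UMIs. After thinning every cell to 4000 UMIs, Lgr5 was seen in 14.8%, 11.8%, 14.8% and 28.4% of gate cells in the same order, against 0%, 0%, 1.07% and 0% of the Cd3 cells. These are values of the gate itself and are given as a description.

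Crypt base genes that the gate did not use stood higher in cells with more of its markers. Among non-cycling cells, Slc12a2, a chloride cotransporter abundant at the crypt base, stood at 66.1 to 106 CPM in cells with 2 markers, just outside the gate. It stood at 153 to 205 CPM in cells with 3 markers, just inside, and at 439 to 934 CPM in cells with 5 or 6. Olfm4, a secreted glycoprotein of crypt base cells, stood at 0 to 4.33 CPM in the 2 set 1 samples with 2 markers and at 26.9 to 50.8 CPM with 5 or 6. In set 2 the same steps were 6.59 to 18.2 and 368 to 527 CPM. Igfbp4, an insulin-like growth factor binding protein, went from 1.96 to 7.45 CPM with 2 markers to 73.9 to 105 CPM with 5 or 6. Fabp1, a fatty acid carrier of enterocytes, ran the other way, from 1078 to 7205 CPM with 2 markers to 65.8 to 245 CPM with 5 or 6. In knockout set 2 alone, cells with 3 markers still held 4496 CPM of Fabp1, against 219 to 462 CPM in the other samples. Gate cells with 3 markers had a median of 15922.5 UMIs, against 14685.5 in those with all 6. The cells with 2 markers numbered 74, 88, 133 and 162 in wild-type set 1, knockout set 1, wild-type set 2 and knockout set 2. On the other limit, 15, 14, 16 and 18 marker-positive cells held exactly 2 UMIs of Mki67 plus Top2a and so fell just outside, while 18, 37, 36 and 34 gate cells held exactly 1.

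**Figure D1:**
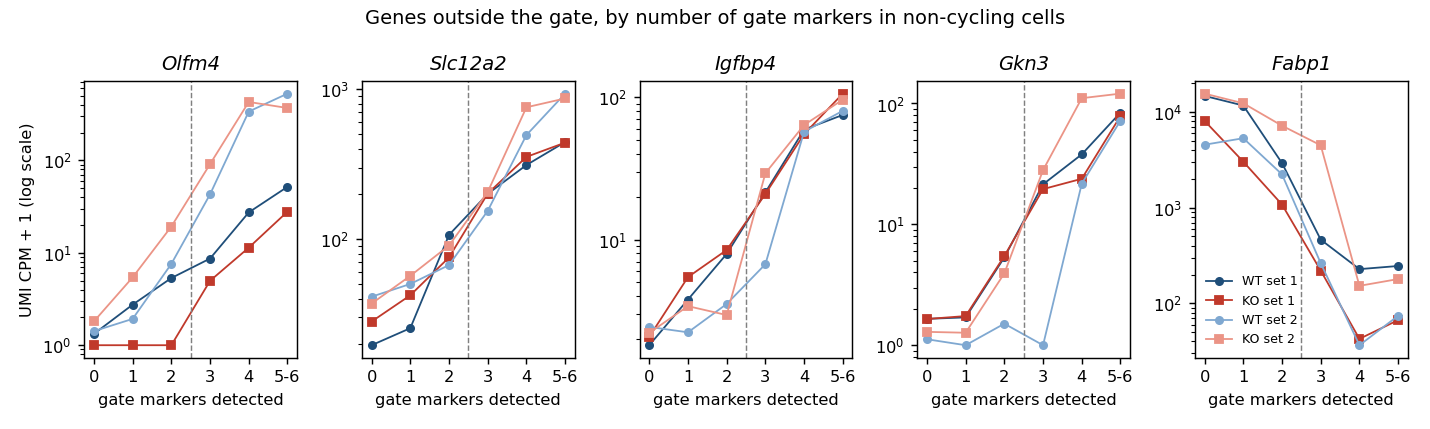
Level of 5 genes outside the gate (UMI CPM + 1, log axis) against the number of the 6 gate markers detected in non-cycling cells, 1 line per sample, with the dashed line at the gate's limit of 3. Slc12a2 goes from 66.1 to 106 CPM at 2 markers to 439 to 934 CPM at 5 or 6, while Fabp1 runs from high to low, and Olfm4 is lower in both set 1 samples than in both set 2 samples from 2 markers on.

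Epithelial genes were present in every gate sample: all 7 of the epithelial list (Epcam, Cdh1, Cldn7, Vil1 and 3 keratins) were detected, with summed levels of 4946 to 9697 CPM. Myeloid markers summed to 5.01 to 19.3 CPM and B lymphocyte or plasma markers to 0.584 to 11.3 CPM. T lymphocyte markers summed to 86.5, 254, 287 and 14.6 CPM in wild-type set 1, knockout set 1, wild-type set 2 and knockout set 2. Goblet markers summed to 5240 to 11027 CPM. The gate as a whole thus held epithelial genes and, as described below, crypt base genes, but single cells differed. Of the 351 cells, 84 held markers of another class, defined here as 3 or more detected markers of an enteroendocrine, tuft, lymphoid, myeloid or stromal list, or over 1% of UMIs in enterocyte or goblet markers. They numbered 10, 24, 16 and 34 in wild-type set 1, knockout set 1, wild-type set 2 and knockout set 2. This limit was chosen after values were seen, and some results are also given without these cells.

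The share of kept cells in the gate was 4.51% in wild-type set 1 (95% exact binomial interval 3.41 to 5.85) and 8.22% in knockout set 1 (6.75 to 9.89). It was 2.498% in wild-type set 2 (2.00 to 3.08) and 3.31% in knockout set 2 (2.73 to 3.97). These intervals cover counting error only. The knockout share was higher in both sets, 1.82 times in set 1 and 1.32 times in set 2, yet the groups overlapped, since knockout set 2 lay below wild-type set 1. The mean difference was 2.26 percentage points (5.76% against 3.50%, n = 2 each). Exact permutation of the genotypes across both sets, which ignores the pairing by set, gave p = 0.667, two-sided. No p under 0.333 is possible in this unpaired test with 2 against 2 samples. A larger number of gate cells and a smaller number of other cells in the suspension cannot be told apart from these shares.

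In set 2, depth and the makeup of the other cells also differed between the genotypes. In set 1 the median kept cell held 16325 UMIs in the wild type and 15986 in the knockout. Kept cells of wild-type set 2 had a median of 6910 UMIs, against 14059 to 16325 in the other samples, and 1407 of them were Cd3 cells, against 802 in knockout set 2, 30 in wild-type set 1 and 55 in knockout set 1. With each cell thinned to 4000 UMIs before gating, the shares were 2.59%, 3.46%, 1.60% and 2.31% in wild-type set 1, knockout set 1, wild-type set 2 and knockout set 2. Thinning left out no cell of set 1, and in set 2 it left 1877 wild-type and 2383 knockout cells. Thinned to 8000 UMIs, set 2 turned round, at 3.57% in the wild type and 3.35% in the knockout, while set 1 kept its order at 3.76% and 6.20%. Among cells with Epcam and without Ptprc, a gene of blood cells, the shares were 4.68% and 8.54% in set 1 and 4.70% and 4.54% in set 2. Of the marker-positive cells, 27.6% and 37.2% were non-cycling in wild-type and knockout set 1, and 24.0% and 30.1% in set 2. The part of depth and of lymphocytes in the set 2 share was not tested beyond these values.

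**Figure D2:**
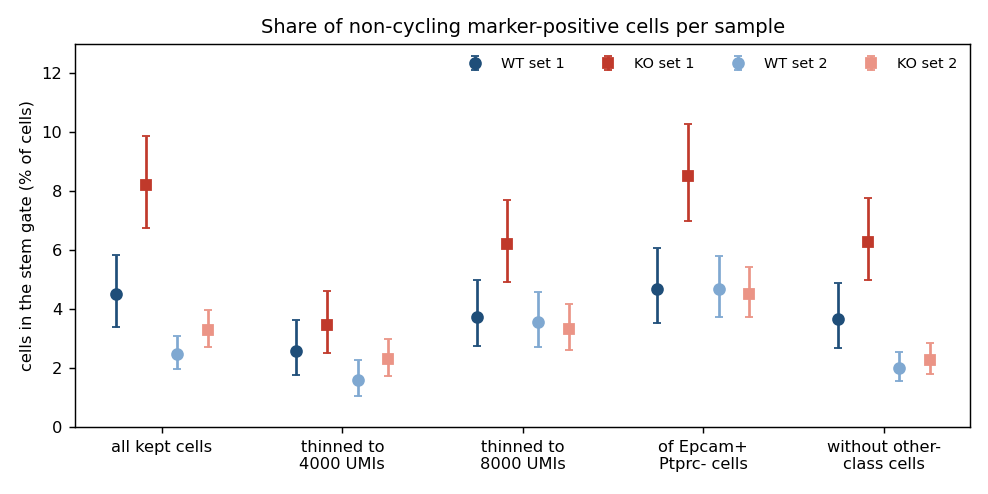
Share of cells in the stem gate per sample (percent, with 95% exact binomial intervals) under 5 ways of counting, with circles for wild type and squares for knockout. Knockout set 1 lies above wild-type set 1 in each, while in set 2 the 2 samples change order when cells are thinned to 8000 UMIs or when cells with Epcam and without Ptprc are the denominator.

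Gate cells were next compared with the other kept cells of the same sample, in order to ask which genes outside the gate set them apart. UMIs were summed per sample and class, and edgeR's quasi-likelihood test was run with sample as a block. Of 11775 genes tested outside the gate, 3515 (29.9%) differed, 1465 higher (12.4%) and 2050 lower (17.4%) in the gate, at a Benjamini-Hochberg adjusted p under 0.05. Because the cells were selected on markers read from the same libraries, these differences describe the gate and are no independent evidence of what its cells are. Of 30 further stem cell genes, 28 were tested, 26 were higher and 0 lower, with a median log2 difference of 1.42 against -0.02 over all genes. Prom1 (log2 difference 0.26, SE 0.11) and Lgr4 (0.07, SE 0.09) did not pass. Fstl1 and Clu were too low to test.

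Among these stem cell genes, Gkn3, a gastrokine marking crypt base cells in mice, stood at 41.4, 32.5, 22.7 and 69.5 CPM in gate cells of wild-type set 1, knockout set 1, wild-type set 2 and knockout set 2. In other kept cells it stood at 4.95, 2.97, 1.24 and 5.83 CPM, so every gate value lay above every other value. Its log2 difference was 3.34 (SE 0.20, edgeR adjusted p = 1.67e-06). Olfm4 stood at 23.8, 10.8, 224 and 238 CPM in gate cells and at 2.60, 2.10, 22.1 and 23.7 CPM in the others, a log2 difference of 3.08 (SE 0.15). Within each sample Olfm4 was higher in the gate, and between sets its level differed by far more than between genotypes. It was seen in 22.2%, 12.7%, 60.7% and 70.3% of gate cells, against 10.0%, 7.27%, 0.711% and 0.998% of the Cd3 cells, at the depths given above for Lgr5. At 4000 UMIs per cell these shares were 7.41%, 1.96%, 40.7% and 49.5% against 3.33%, 0%, 2.67% and 0%, so in set 1 the thinned share is close to the level in Cd3 cells. Slc12a2 stood at 292, 298, 423 and 500 CPM in gate cells against 67.6, 81.3, 118 and 121 CPM. Msi1, an RNA-binding protein of progenitors, differed by 2.17 (SE 0.21), Sox9, a crypt transcription factor, by 1.40 (SE 0.09), and Cdk6, a kinase of G1 entry, by 1.67 (SE 0.09). Rgcc, a regulator of cell cycle response, differed by 2.69 (SE 0.19) and Tnfrsf19, a Wnt-responsive receptor of crypt base cells, by 2.88 (SE 0.34). Without the 84 cells holding other class markers, Cdk6 differed by 1.94 and was higher in the gate as before.

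Genes of 2 signalling lists followed in part. Of 20 Wnt targets and receptors, 15 were tested, 7 were higher and 1 lower. Myc, a transcription factor that drives growth, stood at 48.9, 89.8, 34.8 and 28.0 CPM in the gate of wild-type set 1, knockout set 1, wild-type set 2 and knockout set 2, against 10.5, 18.2, 11.3 and 9.41 CPM in other kept cells. Its log2 difference was 1.74 (SE 0.14), that of the Wnt receptor Fzd2 was 2.02, and Fzd5 was lower at -0.38. Of 18 tested genes of the Notch pathway and lineage choice, 7 were higher and 1 lower. Notch1 differed by 0.91 (SE 0.15), its target Hes1 by 0.98 (SE 0.10), and Sox4, a progenitor transcription factor, by 1.90 (SE 0.12). Gfi1, a transcriptional repressor that acts within the secretory lineage, was lower at -1.18. The tuft regulator Pou2f3 was higher at 1.42.

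Outside these lists, the largest differences among well expressed genes included Igfbp4 (log2 difference 2.29, SE 0.14) and Ifitm3, a membrane protein best known for blocking virus entry (2.26, SE 0.08). Ifitm3 stood at 1167, 867, 616 and 645 CPM in the gate of wild-type set 1, knockout set 1, wild-type set 2 and knockout set 2 and at 187, 160, 131 and 108 CPM in the other cells. Shisa2, an inhibitor of Wnt and FGF receptor maturation, differed by 1.94, and Clca3b, a chloride channel accessory gene, by 1.67. Acot1, an acyl-CoA thioesterase, differed by 1.75. Soat1, which esterifies cholesterol and is one of the stem cell genes already counted above, differed by 1.71. Bex1 and Bex4, read from a list of regional identity genes and of lower level, differed by 1.80 and 2.15. Bex4 stood at 0.637 to 11.3 CPM in the gate.

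**Figure D3:**
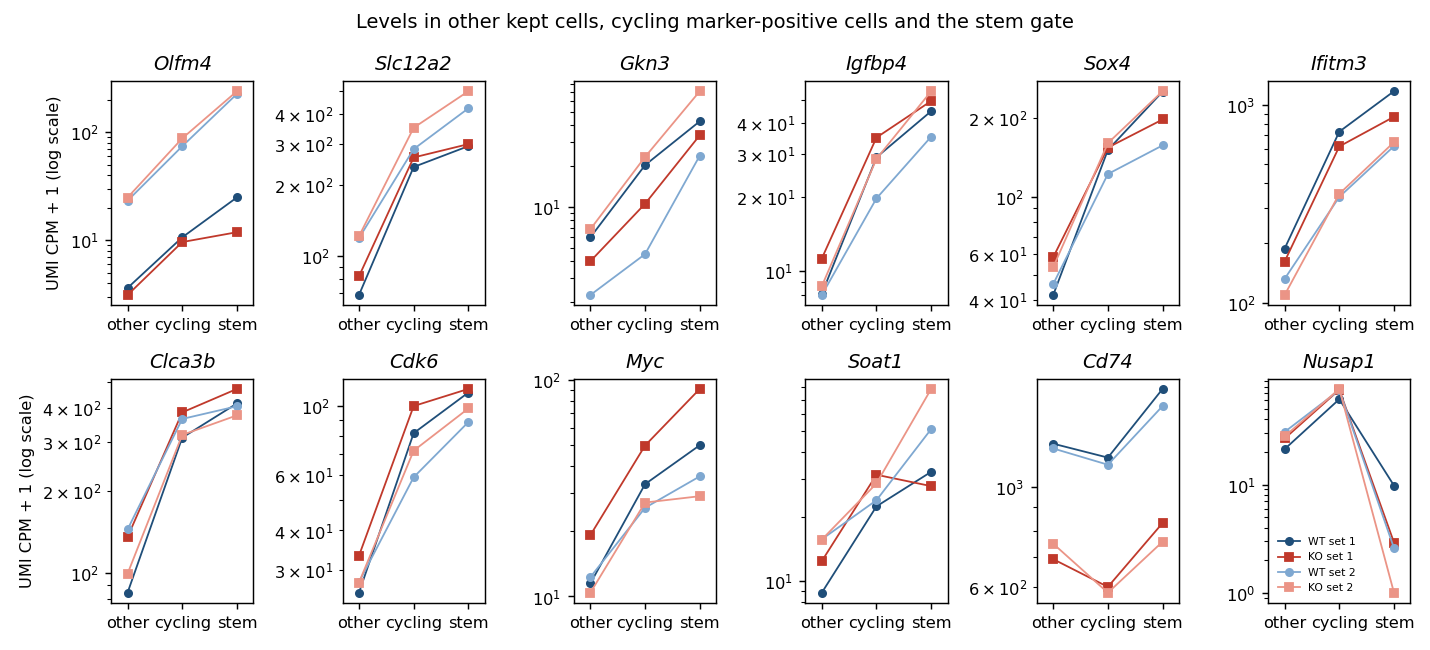
Levels of 12 genes (UMI CPM + 1, log axis) in other kept cells, cycling marker-positive cells and the stem gate, 1 line per sample. The stem cell genes go from low at left to high at right in all 4 samples, Nusap1 peaks in cycling cells, and Cd74 is lower in both knockout samples than in both wild-type samples in each of the 3 classes.

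Genes of differentiated and immune cells were lower in the gate. All 12 enterocyte markers were lower, with a median log2 difference of -2.58, as were 7 of 8 goblet markers (median -1.89). The secretory gene Zg16, a goblet cell lectin, stood at 134, 385, 446 and 941 CPM in the gate of wild-type set 1, knockout set 1, wild-type set 2 and knockout set 2, against 3767, 7057, 9202 and 9894 CPM in other kept cells. Paneth genes that the gate did not name went with its Paneth limit and are a description: Ang4, an antimicrobial ribonuclease, stood at 74.0, 44.6, 25.9 and 102 CPM in the gate and at 660 to 2540.5 CPM outside. T lymphocyte markers were lower in 8 of 8 tested genes and B lymphocyte or plasma markers in 5 of 5. Enteroendocrine markers were the exception, with 0 of 10 higher and 0 lower (median 0.01), and tuft markers were higher in 4 of 8 (median 0.78). The enteroendocrine sums were 277, 112, 15.8 and 883 CPM in the gate of the samples in the order above. In other kept cells they were 131, 153, 216 and 197 CPM, so the sign differed between samples. In knockout set 2 few cells carried the hormone and Chgb UMIs, as described below.

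Part of the interferon, stress and cell cycle inhibitor lists was also lower in the gate than in other kept cells, though less so against cycling cells, as given below. Of 19 tested interferon-stimulated genes, 12 were lower and 0 higher (median -1.06), among them Isg15, a ubiquitin-like protein, at -2.42 (SE 0.26). Of 15 immediate early and heat shock genes, 11 were lower and 1, Hspa8, was higher. Fosb, a subunit of the AP-1 factor, stood at 6.37 to 14.6 CPM in the gate against 20.1 to 48.2 CPM outside it. Cdkn1a, which encodes the cyclin-dependent kinase inhibitor p21, stood at 20.1, 43.3, 50.7 and 87.0 CPM in the gate of wild-type set 1, knockout set 1, wild-type set 2 and knockout set 2, against 103, 109, 98.3 and 118 CPM. Its log2 difference was -1.29 (SE 0.22). Of 14 tested kinase inhibitors and quiescence genes, 7 were lower and 1, Trp53, was higher. Ly6a, a marker of regenerating epithelium, stood at 0 to 1.75 CPM in the gate against 3.41 to 12.7 CPM. The 20 G2 and M phase genes were all lower, which follows from the Mki67 and Top2a limit. Of 20 S phase genes, 12 were higher and 2 lower than in other kept cells. Ung, a DNA repair glycosylase induced at G1/S, differed by 1.83 (SE 0.15), while Rrm2, a ribonucleotide reductase subunit, differed by -2.28.

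The closest cells were the cycling marker-positive ones, which differ from the gate by the Mki67 and Top2a limit. Of 9527 genes tested, 1641 (17.2%) differed, 853 were higher (8.95%) and 788 lower (8.27%) in gate cells. All 20 G2 and M phase genes were lower (median log2 difference -3.03), and Nusap1, a spindle protein, was at 8.78, 1.91, 1.58 and 0 CPM in wild-type set 1, knockout set 1, wild-type set 2 and knockout set 2 against 60.4 to 75.4 CPM. This follows from the rule and is a description. Cycling cells were also deeper, with medians of 19161.5, 18663.5, 43520.5 and 31475 UMIs in the same order. No thinned fit was run for this comparison, and the part of depth was not tested. Of 28 tested stem cell genes, 13 were higher in the gate and 1, Ephb2, a guidance receptor graded along the crypt, was lower at -0.48. The median was 0.41, against 0.01 over all genes. Of 20 S phase genes, 1 was higher and 10 lower in the gate than in cycling cells (median -0.46). Of 13 tested interferon-stimulated genes, 1 was higher and 0 lower (median 0.20). Immediate early and heat shock genes were 4 higher and 2 lower of 14 tested. Kinase inhibitors and quiescence genes were 2 higher and 3 lower of 13 tested.

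Olfm4 stood at 9.60, 8.58, 72.9 and 86.4 CPM in cycling marker-positive cells of wild-type set 1, knockout set 1, wild-type set 2 and knockout set 2, below the gate cells of the same sample each time, with a log2 difference of 1.54 (SE 0.13). Gkn3 was at 19.2, 9.50, 3.48 and 22.2 CPM, a difference of 1.87 (SE 0.19). Pdgfa, a growth factor for mesenchymal cells, was at 53.0, 33.1, 45.3 and 47.5 CPM in cycling cells against 103, 64.3, 137 and 132 CPM in the gate, a difference of 1.42 (SE 0.12). Phlda1, a gene of pleckstrin homology type, was at 25.9 to 33.7 CPM against 60.2 to 91.7 CPM, with no overlap between the classes. Sp5, a Wnt target that represses transcription, was at 4.98 to 9.07 CPM against 13.4 to 21.3 CPM, a difference of 1.19 (SE 0.21). Its list did not follow: of 14 tested Wnt targets and receptors, 5 had a positive and 9 a negative value (median -0.09). Of these, 2 were called higher and 1 lower in the gate. Acot1 differed by 1.33, Marcksl1 by 1.26 and Ypel3 by 1.16.

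Enterocyte and tuft markers were mostly higher, and part of the goblet markers lower, in gate than in cycling cells. Of 12 enterocyte markers, 11 were higher (median 1.06), although their sum in wild-type set 1 was 1667 CPM in the gate and 1755 CPM in cycling cells. Rbp2, a retinol carrier of enterocytes, was at 72.7, 49.7, 93.4 and 839 CPM in the gate of wild-type set 1, knockout set 1, wild-type set 2 and knockout set 2 and at 69.3, 40.2, 36.2 and 162 CPM in cycling cells. With 4 or more markers required, its log2 difference went from 1.38 (SE 0.26) to -0.32. It was 0.50 when the gate and cycling cells that held other class markers were both left out. All 8 tuft markers were higher (median 1.48), including Dclk1 at 16.3, 37.6, 21.1 and 32.1 CPM against 9.95, 25.7, 7.42 and 7.11 CPM. Of 8 goblet markers, 4 were lower and 0 higher. In the gate, 2, 9, 3 and 7 cells held 3 or more tuft markers.

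The antigen presentation genes of MHC class II, which display peptides to helper T cells, were higher in gate than in cycling marker-positive cells. Of 8 genes, 6 were higher and 0 lower, with a median log2 difference of 0.59. Cd74, the invariant chain that guides class II molecules, stood at 1640, 830, 1503 and 755 CPM in the gate of wild-type set 1, knockout set 1, wild-type set 2 and knockout set 2. In cycling cells it stood at 1157, 600, 1116 and 583 CPM, lower in each of the 4 samples, with a difference of 0.54 (SE 0.05, edgeR adjusted p = 2.14e-06). H2-Eb1, a class II beta chain, differed by 1.03 (SE 0.12). With the gate and cycling cells that held other class markers both left out, Cd74 differed by 0.61 and H2-Eb1 by 1.07. Against all other kept cells the list did not stand out, with 1 gene higher and 0 lower.

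The study's own question is the difference between knockout and wild type, tested within each set in gate cells. Of 8885 genes tested outside the gate, edgeR called 0 (0%) at an adjusted p under 0.05. An unadjusted p under 0.05 was reached by 360 genes (4.05%), and DESeq2 called 10 (0.113%). The difference had the same sign in both sets for 49.5% of genes. With 1 sample left out, the set could not stay in the model, so those fits compare across sets, take the spread from the genotype that keeps 2 samples and assume that the lone sample varies alike. They called 20 genes without knockout set 1, 3 without knockout set 2, 1 without wild-type set 1 and 0 without wild-type set 2, where 240 genes had an unadjusted p under 0.05. With the set in the model, the count was 111 with no filter on low counts, 61 at a mitochondrial limit of 10% and 80 without the 5% of cells with the most UMIs. The values below therefore describe these 4 samples, and none passed the test as planned.

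The stem cell program showed no call, but cells of both genotypes were chosen on markers of that program. Crypt base genes outside the gate also rose with the number of markers detected. The gate may thus limit the difference that stem cell genes can show, and the list is a description. Of 28 tested stem cell genes, 14 were higher and 14 lower in the knockout, with a median log2 difference of -0.002 against 0.005 over all genes. Slc12a2 differed by 0.13 (SE 0.15), Sox9 by 0.28 (SE 0.17), Cdk6 by 0.09 (SE 0.16) and Olfm4 by -0.21 (SE 0.26). Cd44, an adhesion receptor under Wnt control, stood at 37.6 and 43.3 CPM in wild-type and knockout set 1 and at 20.6 and 35.6 CPM in set 2. Of 13 tested Wnt genes, 7 were higher and 6 lower (median 0.01), and of 15 tested Notch and lineage genes, 14 were higher and 1 lower (median 0.33), none of them called. Of 16 tested genes reported as miR-375 targets, 12 were higher and 4 lower (median 0.14), again with 0 called. These counts take the sign of the fit, and in each list some genes differed in sign between the sets. Sox4 was at -0.35 in set 1 and 0.67 in set 2, and the reported target Klf5 at 0.67 and -0.20. Yap1, a Hippo pathway coactivator, stood at 33.8 and 38.2 CPM in set 1 and 20.6 and 29.2 CPM in set 2, a difference of 0.34 (SE 0.25).

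Antigen presentation genes were among those with the smallest p-values on the lower side. Cd74 stood at 1640 and 1503 CPM in the wild-type samples of sets 1 and 2 and at 830 and 755 CPM in the knockout samples. The genotypes did not overlap, as was the case for 851 genes in this direction (9.58%), and the log2 difference was -0.997 (SE 0.11, edgeR adjusted p = 0.0596). H2-Ab1, a class II beta chain, stood at 390 and 355 CPM against 150 and 169 CPM, and H2-Aa, the paired alpha chain, at 633 and 340 CPM against 69.4 and 127 CPM. All 7 tested class II genes were lower in the fit (median -0.997), 5 of them with an unadjusted p under 0.05. H2-Eb1 did not follow in set 1, where it stood at 115 CPM in the wild type and 137 CPM in the knockout. In set 2 it stood at 51.7 and 24.5 CPM, so the sign differed between the sets (0.25 and -1.07).

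Values of a few further immune genes follow, none of them called. Psmb9, an immunoproteasome subunit, stood at 196 and 335 CPM in wild-type sets 1 and 2 and at 53.5 and 168 CPM in the knockout. Its partner Psmb8 stood at 341 and 576 CPM against 87.9 and 355 CPM, with overlap between the genotypes. H2-D1, a class I heavy chain, stood at 649 and 1072 CPM against 216 and 614 CPM, with no overlap. Psmb8 was chosen after its values were seen. H2-Ab1, H2-Aa, H2-DMa, H2-Eb1, H2-D1, Psmb8 and Psmb9 lie on chromosome 17, and Cd74 lies elsewhere. Of 10 tested interferon-stimulated genes, 9 had a negative and 1 a positive value (median -0.70), 5 with an unadjusted p under 0.05 and 0 called.

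The lower values were not limited to the gate. In cycling marker-positive cells Cd74 stood at 1157 and 1116 CPM in the wild-type samples and 600 and 583 CPM in the knockout. In other kept cells it stood at 1242 and 1212 CPM against 691 and 747 CPM. The test of whether the Cd74 difference was larger in gate cells than in other kept cells gave -0.28 on the log2 scale (SE 0.23, edgeR adjusted p = 1.00). For H2-Aa the same test gave -0.91 (SE 0.23, adjusted p = 0.0236), and it was called in 3 of 10 alternatives, whose adjusted p ranged from 0.00428 to 1.00. Without the cells holding other class markers it was -0.86 and not called. Myeloid markers, of cells that carry class II, summed to 5.01 and 5.28 CPM in the wild-type gates and 12.1 and 19.3 CPM in the knockout gates, and their part in the result was not tested. Of 8 myeloid markers, 2 held a UMI in each wild-type gate, and 5 and 8 did in knockout sets 1 and 2, with C1qa and Itgax at 0 in every gate but that of knockout set 2.

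Reg3b, an antibacterial lectin induced in epithelium, stood at 130 and 2849 CPM in wild-type sets 1 and 2 and at 68.8 and 1129 CPM in the knockout, lower in each set but with overlap between genotypes. Its log2 difference was -1.16 (SE 0.14, adjusted p = 0.0596). Without the 84 cells holding other class markers it was -2.44, the only gene called there (adjusted p = 0.0101, where its 16 alternatives ranged from 1.13e-14 to 1.00). Within sets the difference was -0.91 in set 1 and -1.35 in set 2. Ccl9, a chemokine, stood at 41.4 and 159 CPM against 17.8 and 70.7 CPM, a difference of -1.19 (SE 0.18).

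On the higher side the smallest p-value was that of Wdfy1, an adaptor of endosomal Toll-like receptors. It stood at 5.01 and 11.6 CPM in wild-type sets 1 and 2 and at 36.9 and 70.7 CPM in the knockout, a log2 difference of 2.65 (SE 0.28, edgeR adjusted p = 0.0596), with no overlap. Genotypes did not overlap in this direction for 879 genes (9.89%). The difference was 2.74 in set 1 and 2.52 in set 2, close to each other. Wdfy1 lies at chr1:79702262-79776143 on the minus strand, 4.80 Mb from Mir375 on the same chromosome. It passed the test in 9 of 16 alternatives, with values from 2.11 to 3.48. Cycling marker-positive cells held 5.33 and 6.89 CPM in the wild type and 32.8 and 64.0 CPM in the knockout, and other kept cells 8.31 and 10.4 CPM against 31.6 and 57.3 CPM. The difference in gate cells was not found to exceed that in other kept cells, at 0.21 (SE 0.34).

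Of 3 genes on chromosome 11 that earlier results of these data had put on the list, 2 were high and 1 was low in the knockout gate. Cuedc1, a CUE domain protein, stood at 5.01 and 3.17 CPM in wild-type sets 1 and 2 and at 19.7 and 23.9 CPM in the knockout (log2 difference 2.53, SE 0.42). Rprml, a reprimo-like gene, stood at 3.76 and 0 CPM against 24.2 and 14.6 CPM. Pctp, a phosphatidylcholine transfer protein, stood at 17.6 and 10.6 CPM against 3.82 and 4.09 CPM (-1.75, SE 0.46). In each the genotypes did not overlap in the gate. Since these genes were chosen for their knockout difference, their values support nothing further.

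**Figure D4:**
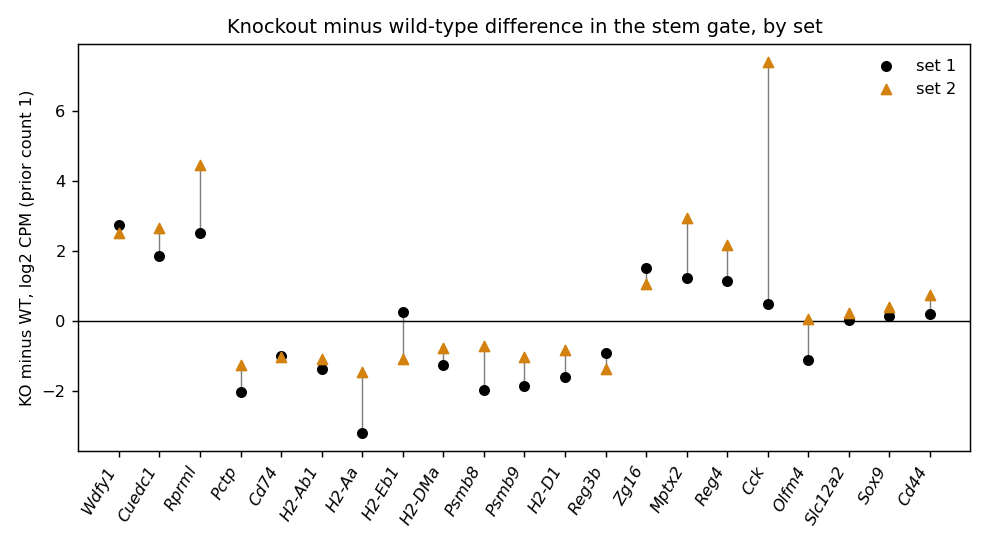
Knockout minus wild-type difference in the stem gate for 21 genes (log2 CPM with a prior count of 1), with circles for set 1 and triangles for set 2. Wdfy1 and Cd74 give nearly the same value in both sets (2.74 and 2.52, -0.98 and -1.01), Cck and H2-Eb1 differ widely between sets, and the stem cell genes at the right lie near 0 in at least 1 set.

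Genes of secretory and absorptive cells were also among the highest knockout values. Zg16 stood at 134 and 446 CPM in wild-type sets 1 and 2 and at 385 and 941 CPM in the knockout, a log2 difference of 1.28 (SE 0.16, adjusted p = 0.0596), with overlap. Reg4, a lectin of secretory cells, stood at 28.8 and 81.3 CPM against 64.9 and 372 CPM (1.83, SE 0.25), again with overlap. Mptx2, a pentraxin of Paneth cells, stood at 18.8 and 24.8 CPM against 45.2 and 198 CPM (2.48, SE 0.34). Adh1, an alcohol dehydrogenase, stood at 51.4 and 36.4 CPM against 104 and 116 CPM (1.37, SE 0.21). Gsta1, a glutathione transferase, and Reg1, a secreted lectin, were high in knockout set 2 only, at 175 and 133 CPM, against 5.01 to 23.2 CPM in the other 3 samples. Within set 1 the knockout minus wild-type difference was 0.37 for Gsta1 and 0.18 for Reg1, and within set 2 it was 2.86 and 2.56. In the fit, 10 of 12 enterocyte markers had a positive and 2 a negative value (median 0.57), as did 7 and 1 of 8 goblet markers (0.33) and 8 and 0 of 8 tuft markers (1.02), and none was called. Tuft markers summed to 361 and 286 CPM in the wild-type gates and to 809 and 420 CPM in the knockout gates, and Rgs13, a tuft gene, stood at 15.04 and 39.6 CPM against 118 and 62.5 CPM. Enterocyte markers summed to 1667 and 2532 CPM against 1254 and 6884 CPM, lower in the knockout in set 1 and higher in set 2. Without the cells holding other class markers, the Zg16 difference was 0.82, that of Reg4 1.41 and that of Mptx2 2.94, and none was called. Gsta1 then went from 2.63 to 0.67, Reg1 from 2.37 to 1.36 and Adh1 from 1.37 to 1.25, again not called.

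No cell cycle gene was called between the genotypes. Of 19 tested S phase genes, 7 had a positive and 12 a negative value (median -0.05). Of 13 tested G2 and M phase genes, 12 had a negative and 1 a positive value (median -0.52). These genes go with the Mki67 and Top2a limit and the list is a description. Cdc20, an activator of mitotic exit, stood at 42.6 and 24.3 CPM in wild-type sets 1 and 2 and at 14.6 and 11.7 CPM in the knockout. Its log2 difference went from -1.30 to 0.54 when gate cells had to hold no UMI of Mki67 or Top2a. Without the cells holding other class markers it was -0.45. Cdkn1a stood at 20.1 and 50.7 CPM against 43.3 and 87.0 CPM (0.87, SE 0.20), and at -0.018 without the cells holding other class markers. Immediate early and heat shock genes were 11 higher and 2 lower of 13 (median 0.36), none called, and such genes also respond to tissue dissociation, which was not tested.

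The knockout difference in gate cells departed from that in the other kept cells for hormone genes of enteroendocrine cells. The interaction test called 38 of 12615 genes (0.301%), 29 higher (0.230%) and 9 lower (0.0713%). Of the 10 enteroendocrine markers, 7 were higher and 0 lower. Gip, an incretin hormone, stood at 22.6, 25.5, 4.75 and 1578 CPM in the gate of wild-type set 1, knockout set 1, wild-type set 2 and knockout set 2, and at 826, 836, 418 and 490 CPM in other kept cells. The high value belonged to 1 sample. Gcg, the glucagon precursor, stood at 0, 0.637, 2.64 and 521 CPM, Pyy, a satiety peptide, at 0, 0, 0 and 245 CPM, and Cck, which stimulates bile and enzyme release, at 7.52, 10.8, 0.528 and 203 CPM. Chgb, a secretory granule protein, stood at 198, 72.6, 1.58 and 650 CPM. The log2 difference of differences was 5.35 (SE 0.36) for Gip and 5.79 (SE 0.43) for Cck, with edgeR adjusted p-values of 1.74e-46 and 3.84e-37.

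Those UMIs came from few cells. In knockout set 2, 6 of 111 gate cells held 3 or more enteroendocrine markers, and they carried 2696 of 2702 Gip UMIs, 891 of 892 Gcg UMIs, all 348 Cck UMIs, all 419 Pyy UMIs and 1108 of 1113 Chgb UMIs. The other gates held 1 such cell in wild-type set 1, 2 in knockout set 1 and 0 in wild-type set 2. The 1 cell of wild-type set 1 carried 156 of its 158 Chgb UMIs. With the cells holding other class markers left out, the Gip interaction was -0.20 and that of Cck -1.01, and 7 genes were called in place of 38. With 1 sample left out and class by set dropped from the model, the count was 0 without wild-type set 1 (470 genes at an unadjusted p under 0.05), 2 without wild-type set 2, 13 without knockout set 2 and 28 without knockout set 1. DESeq2 called 0, with 42 genes at an unadjusted p under 0.05, and edgeR without the set in the model called 0, with 326.

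**Figure D5:**
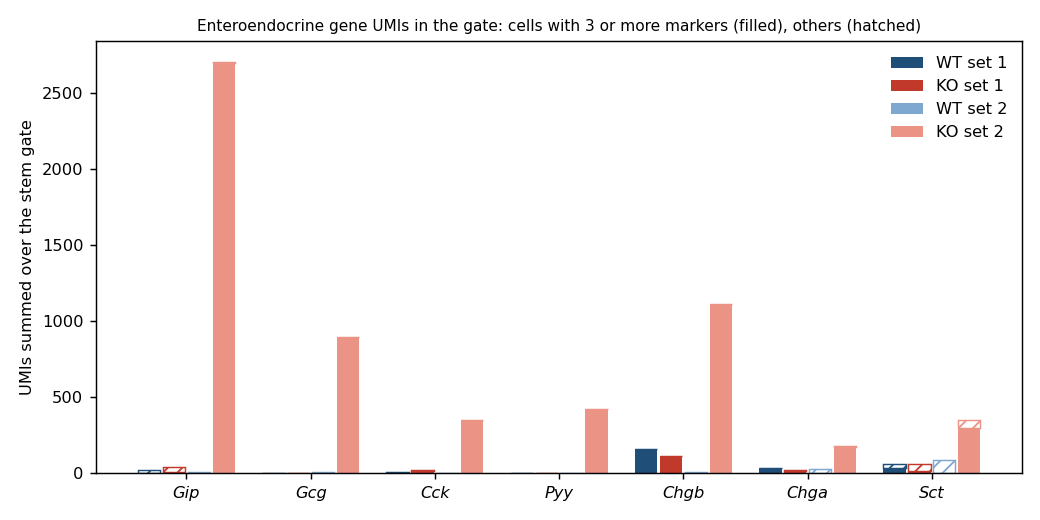
UMIs of 7 enteroendocrine genes summed over the gate cells of each sample, split into cells with 3 or more enteroendocrine markers (filled) and the remaining gate cells (hatched). Knockout set 2 holds 2702 Gip UMIs, 2696 of them in 6 cells, while the other 3 samples hold 9 to 40.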

How the data were processed

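Per the labels, libraries followed the 10x Genomics Chromium protocol. The deposited matrices hold raw UMI counts of 27998 features per barcode. Cell Ranger, STAR and mm10 are named in the submitters' processing notes, and per the file headers software version 3.0.1 wrote the set 2 matrices. How strand and doublets were handled was not given in the sources used here. No doublet caller was run, and an alternative left out the 5% of cells with the most UMIs. The barcodes numbered 1209, 1251, 7711 and 7665 (wild-type and knockout set 1, wild-type and knockout set 2), with 24760063, 24533466, 70409055 and 66022224 UMIs. A total of 1197, 1241, 3363 and 3355 cells were kept. The 3 tables on other libraries of the series' 54 samples were not used here.

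UMIs were summed per sample and class and tested with edgeR 4.0.16 (TMM, filterByExpr, glmQLFit, glmQLFTest) in R 4.3.3. Calls used an adjusted p under 0.05, two-sided, over all genes tested. The knockout comparison had set as a block, the class comparisons sample, and the interaction sample, class and class by set. DESeq2 1.42.0 was an alternative. The labels pair samples by set, and same-set deviations from the genotype means correlated at 0.521. Gate genes were described, not tested. Python 3.11.15, numpy 2.4.6, scipy 1.17.1, pandas 2.3.3 and matplotlib 3.10.9 served for gating, exact tests and plots.

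Named genes were members of 14 lists, the 15 largest changes in each direction among calls with the same sign in every sample and a mean of at least 20 CPM, or the 10 smallest p-values in each direction where fewer were called. Members and lists were chosen with earlier results of these data known. Some list results are not reported here. On simulated data with 200 changed genes, the knockout test recovered 33.0% of 2-fold and 92.6% of 4-fold changes, among 8653 genes. The simulation gave every gene the same spread between samples (a dispersion of 0.0234), which the data need not have, so recovery in the data may be lower. Gene positions come from GENCODE on GRCm38, the assembly that mm10 names.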

Additional observations from a re-analysis of the deposited data

Results flagged for a closer look

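The knockout difference was itself tested for a difference between gate cells and other kept cells, and 38 genes passed. They are listed because the genotype contrast differed between the classes in edgeR's test. The adjusted p-values were 3.59e-180 for Pyy, 2.94e-88 for Gcg, 1.74e-46 for Gip, 3.84e-37 for Cck and 1.47e-11 for Chgb, all hormone or granule genes. They were 3.50e-28 for Fabp5, a fatty acid carrier, 9.90e-13 for Cpe, a prohormone carboxypeptidase, 3.39e-10 for Vim, an intermediate filament, 1.30e-05 for Isl1, an endocrine transcription factor, and 1.45e-05 for Apoe, an apolipoprotein. Pyy was at 0 in 3 of the 4 gates, so its fitted value is no bound on a fold. Fabp5 stood at 15.04, 15.3, 14.3 and 232 CPM in wild-type set 1, knockout set 1, wild-type set 2 and knockout set 2, the same sample that held the 6 cells with enteroendocrine markers.

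The next 5 genes were read from the lists. The edgeR adjusted p was 0.0236 for H2-Aa, 0.000144 for H2-Eb1, 0.00323 for Cdc20, 0.00168 for Fabp6 and 0.0111 for Fabp1. Without cells holding other class markers, only Fabp6 of the 5 was called, at a log2 value of -3.47. H2-Aa was then at -0.86, H2-Eb1 at -1.03, Cdc20 at -0.55 and Fabp1 at -0.19, none of them called. DESeq2 called 0 genes. H2-Eb1 stood at 31.6, 111, 23.4 and 14.9 CPM in other kept cells of the 4 samples in the order above, against 115, 137, 51.7 and 24.5 CPM in the gate. Cdc20 goes with the Mki67 and Top2a limit.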

How the results depend on the processing

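On simulated data with the same spread for every gene, the knockout test recovered 33.0% of 2-fold changes, so many changes of that size would be missed. Recovery in the data may be lower, where Wdfy1 missed the call at a log2 difference of 2.65. The mean share difference stayed above 0 under the 9 counting alternatives, but within set 2 the wild type was higher at 8000 UMIs (3.57% against 3.35%) and among cells with Epcam and without Ptprc (4.70% against 4.54%). The knockout count of 0 became 10 with DESeq2, 111 with no filter on low counts, 61 at a mitochondrial limit of 10%, 80 without the 5% of cells with the most UMIs and 29 with cells thinned to 4000 UMIs. It became 3 and 10 with 2 and 4 or more markers, 14 with no UMI of Mki67 or Top2a and 1 without cells holding other class markers, a limit chosen after seeing the data. Leaving out 1 sample gave 0 to 20, with the set block dropped and the lone sample assumed to vary like the others. The cause was not tested. For gate against other kept cells 3515 became 1115 with 2 or more markers, and 2502 to 2965 without 1 sample. Against cycling cells 1641 became 885 with DESeq2, 3540 and 1050 with 2 and 4 or more markers, and 978 to 1554 without 1 sample, the lowest without wild-type set 2. The interaction count of 38 became 0 with DESeq2, 7 without cells holding other class markers and 0 to 28 without 1 sample.

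Without the replicate block, the pairing by set, the knockout count was 0 (95 genes at an unadjusted p under 0.05), the class counts 3121 and 1256 and the interaction count 0.

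Signs turned in the knockout comparison for Adh1 (-0.49) and Reg1 (-0.20) with 4 or more markers, Cck (-0.12) with 2 or more, Cdc20 (0.54) with no UMI of Mki67 or Top2a, and Cdkn1a (-0.018) without cells holding other class markers. Leaving out 1 sample, which drops the set block and so sets samples of different sets against each other, gave Gsta1 -0.85 to 3.69, Reg1 -1.24 to 3.60, Reg3b -4.30 to 2.03 and H2-Eb1 -1.85 to 0.77, where 0.76 came without wild-type set 1. Against cycling cells Rbp2 went to -0.32 with 4 or more markers. In the interaction, leaving out 1 sample, without class by set, gave Gcg -1.25 to 14.64, Chgb -0.30 to 7.44, Fabp6 -3.19 to 0.91 and Fabp1 -0.27 to 2.31. Without cells holding other class markers Gip was -0.20, Cck -1.01 and Fabp1 -0.19, and with Epcam-positive, Ptprc-negative cells Apoe was -0.50.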

Other observations

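Several genes of the gate differed more between the sets than between the genotypes, chosen after their values were seen and not tested. Fabp6, a bile acid carrier of the ileum, stood at 6.27 and 5.73 CPM in wild-type and knockout set 1 and at 196 and 119 CPM in set 2. Hopx, a homeodomain protein described in slowly dividing crypt cells, stood at 35.1 and 21.6 CPM in set 1 and at 160 and 157 CPM in set 2. Sis, the sucrase-isomaltase of enterocytes, stood at 28.8 and 30.6 CPM in set 1 and at 238 and 478 CPM in set 2. Cdkn2b, a cyclin-dependent kinase inhibitor, stood at 7.52 and 11.5 CPM in set 1 and at 63.9 and 38.5 CPM in set 2. Olfm4, at 23.8 and 10.8 CPM in set 1 and 224 and 238 CPM in set 2, had the same order. In each of these the 2 sets did not overlap. The labels give no region of the intestine for either set.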
